A study of Mus musculus with 3 samples.

Results

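The 8 genes described here set the pace of the first cell cycle decision, the one that cells take in G1 before they copy their DNA. They are the 3 D cyclins (Ccnd1, Ccnd2 and Ccnd3), the 2 kinases they switch on (Cdk4 and Cdk6) and the 3 inhibitors of the Cip/Kip family (Cdkn1a, Cdkn1b and Cdkn1c). Each was taken by its symbol from the 51923 genes of the deposited count matrix, and all 8 passed the filter on low counts in every comparison of whole samples and of Tnnt2-positive cells. Their levels were followed by stage and genotype in all cells and in cells that hold the message of Tnnt2, the cardiac troponin T gene that marks cells building a sarcomere.

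The study asked what happens to early heart mesoderm when it cannot release Wnt signals. C57BL/6 mouse embryos carried Mesp1-Cre, a recombinase active in the early mesoderm that forms the heart, some blood vessels and part of the head, and Ai9, a reporter that turns recombined cells red through tdTomato. Controls were Wls fl/+ and mutants Wls fl/fl, so the controls too carried the Cre, the reporter and 1 floxed copy of Wls, the gene for a carrier protein that cells need to secrete Wnt proteins. Wls is removed only in cells with Cre and their descendants, and red cells were sorted, so cells left unsorted were not measured. The sorted cells included 256 neural-like and 202 endoderm or epithelium-like cells, which are in the sums over all cells. In the neural-like cells Wls was not called lower in mutants (log2 fold change -0.53, edgeR adjusted p = 0.362).

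Embryos were taken at E8.0, E8.5 and E9.5, tagged with MULTI-seq lipid barcodes, pooled, sorted and sequenced as single cells by the 10x Chromium method in 3 runs. The replicate used here is the MULTI-seq barcode sample: 10 mutant and 12 control samples, with 3 of each genotype at E8.0, 1 mutant and 2 controls at E8.5, 6 of each at E9.5, and 1 control that the authors' cell table places at E7.5. No source used here says whether a barcode holds 1 embryo or several, so a p-value measures the spread between barcode samples. A level is the sum of a gene's UMIs (unique molecule tags) over the cells of a sample, in counts-per-million (CPM) of all UMIs in that sum, and is shown for sums of at least 20 cells. One E9.5 control of 6 cells is therefore in the fits of all cells but not among the levels, which leaves 5 E9.5 controls there.

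A D cyclin appears when growth factors reach a cell, binds Cdk4 or Cdk6, and the pair phosphorylates the retinoblastoma protein, which then lets go of the E2F factors that turn on genes for DNA synthesis. Cip/Kip inhibitors bind cyclin and kinase together and shut the kinase of cyclin E complexes, although they can also help D cyclins assemble with their kinase. In the embryonic heart, D cyclins are known to drive growth of the ventricles, Cdkn1b and Cdkn1c mark heart cells that slow their division, and Cdkn1c is an imprinted gene read mainly from the maternal copy. Ccnd1 and Ccnd2 are both known targets of Wnt signalling through beta-catenin in several tissues.

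Each of the 2 families shares a short motif, printed here with the bases around it. In the D cyclins the capitals mark the bases that encode the motif by which the protein binds retinoblastoma, known as LxCxE, in the first 60 coding bases of each gene.
Ccnd1: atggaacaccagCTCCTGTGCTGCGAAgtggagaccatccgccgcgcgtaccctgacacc
Ccnd2: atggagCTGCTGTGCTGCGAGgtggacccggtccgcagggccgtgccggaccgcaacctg
Ccnd3: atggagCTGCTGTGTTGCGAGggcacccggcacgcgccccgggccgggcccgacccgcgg

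These lie, in the GRCm38 build with GENCODE M21 transcripts, at chr7:144939634-144939693 on the minus strand (Ccnd1, exon 1), chr6:127150714-127150773 on the minus strand (Ccnd2, exon 1) and chr17:47593655-47593714 on the plus strand (Ccnd3, exon 3). Of the 15 motif bases, Ccnd1 and Ccnd2 share 13, Ccnd1 and Ccnd3 share 12, and Ccnd2 and Ccnd3 share 14. In the inhibitors the capitals mark the bases that encode the cyclin-binding motif near the start of the protein, found in reading frame by a search on its shared bases, within a window of 57 coding bases.
Cdkn1a: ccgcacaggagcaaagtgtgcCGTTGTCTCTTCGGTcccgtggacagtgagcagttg
Cdkn1b: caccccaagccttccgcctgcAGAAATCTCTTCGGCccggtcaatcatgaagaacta
Cdkn1c: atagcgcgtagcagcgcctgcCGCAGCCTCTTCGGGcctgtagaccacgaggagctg

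The windows lie at chr17:29098438-29098494 on the plus strand (Cdkn1a, exon 2), chr6:134920986-134921042 on the plus strand (Cdkn1b, exon 1) and chr7:143460576-143460632 on the minus strand (Cdkn1c, exon 2). Motif bases were identical at 10 of 15 positions between Cdkn1a and Cdkn1b, 11 between Cdkn1a and Cdkn1c and 10 between Cdkn1b and Cdkn1c. Each motif had 1 match in every member of its own family and 0 in the other members. The search letters were bases that the family shares, so the matches in its own members were given in advance. No stretch of 31 bases was shared by the transcripts of any 2 members (0 such stretches), so reads of that length could not be split between them.

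The files held 14777 cells with a median of 21739 UMIs, and the 22 samples held 6 to 2508 cells and 134457 to 61307782 UMIs. Of the cells, 46 carried 1 of 23 cell barcodes found in more than 1 run. Wls, the deleted gene, stood at 7.25 to 14.2 CPM in the 3 E8.0 mutants against 54.1 to 65.4 in their controls, and at 8.54 to 12.1 in the 6 E9.5 mutants against 35.9 to 46.1 in theirs, so the genotype labels held in every such sample. By the balance of Y-linked and Xist counts, the 3 E8.0 mutants were nearly all male cells, while 2 E8.0 controls were nearly all female and 1 was mixed: sex and genotype cannot be told apart at E8.0. At E9.5 both genotypes held samples of each sex, but not evenly. Among the E9.5 controls only Bar7 and the 6-cell Bar6 were male. In run 1 at E9.5 the controls (Bar22 and Bar23) were female, the mutants Bar19 and Bar21 male and the mutant Bar20 female. Sex and genotype are therefore hard to tell apart in run 1 alone. Levels of 12 genes known to rise in low oxygen, such as Vegfa and Slc2a1, summed to 942 to 1475 CPM in the E9.5 mutants against 286 to 424 in the E9.5 controls, and to 524 to 659 against 492 to 614 at E8.0. All 12 were called higher in mutants at E9.5 and 0 at E8.0, where 10.3% and 0.0244% of all genes tested were called. The list was chosen with earlier results of these data known, so this count is a description and no test. The part of these genes in the results on the members was not tested.

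In all cells, mutants had less Ccnd1 and more Cdkn1b and Cdkn1c message than controls, while the other 5 members did not pass the test. The fit took all 22 samples, with stage and run as blocks, edgeR's quasi-likelihood test and an adjusted p under 0.05 over the 20831 genes tested. It called 3 of the 8 members, where 10.2% of all genes tested were called. The E7.5 control (Bar18) was alone in its block, so it carried no weight in the genotype effects of this fit. In a sum over all cells, fewer cells of a type and less RNA per cell cannot be told apart.

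Ccnd1, the D cyclin best known as a growth factor and Wnt target, changed at E9.5. The 5 E9.5 controls stood at 77.1, 93.3, 106.8, 108.5 and 108.8 CPM, and the 6 mutants at 67.9, 68.6, 72.2, 77.7, 81.5 and 84.9 CPM. Every mutant lay below the control median, and the groups overlapped only through the lowest control, which a run 3 sample gave. At E9.5 the log2 fold change of mutants against controls was -0.45 (SE 0.08, edgeR adjusted p = 0.00332), in a fit of 6 against 6 samples in which 10.3% of genes were called. At E8.0 controls stood at 86.6, 95.7 and 138.1 CPM and mutants at 107.9, 108.4 and 134.6, with overlapping groups and a log2 fold change of 0.06 (SE 0.15, edgeR adjusted p = 0.919). Over all stages the log2 fold change was -0.33 (SE 0.09, edgeR adjusted p = 0.0259), and it missed the threshold with DESeq2 size factors (adjusted p = 0.0550). It missed it too when any 1 of 7 samples was left out, with edgeR adjusted p up to 0.0876. Other settings that lost it were the male share as covariate (edgeR adjusted p = 0.0510), limma on mean CPM per cell (0.0712), run 1 alone (-0.22, edgeR adjusted p = 0.375) and the fit without the E9.5 samples (-0.14, edgeR adjusted p = 0.753).

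The difference between the E9.5 and E8.0 effects on Ccnd1 was itself tested as an interaction and came to -0.50 on the log2 scale (SE 0.16, edgeR adjusted p = 0.200). None of the 8 members passed that test (0 called, against 0.464% of all genes, with 2060 genes at an unadjusted p under 0.05). Without the E8.0 control of mixed sex (Bar29), the Ccnd1 difference was -0.70 (edgeR adjusted p = 0.0398), and with no filter on low counts it was -0.56 (edgeR adjusted p = 0.0306). Here and below, calls made only with no filter are a description, for the reason given in the closing sections. At E8.5 the mutant stood at 81.2 CPM and the 2 controls at 121.4 and 122.3 CPM, and genotype at E8.5 alone was not tested.

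Cdkn1b, which encodes the inhibitor p27, rose in E9.5 mutants. The 5 E9.5 controls stood at 18.3, 19.2, 19.3, 20.5 and 23.7 CPM, and the 6 mutants at 24.0, 35.6, 35.8, 35.9, 36.8 and 36.9 CPM. The groups did not overlap, as was the case for 1 of the 8 members and for 4.01% of all genes tested at E9.5, and 5 mutants lay within a narrow band while the sixth, Bar20, lay just above the highest control. The log2 fold change at E9.5 was 0.76 (SE 0.15, edgeR adjusted p = 0.00800), and over all stages 0.55 (SE 0.12, edgeR adjusted p = 0.00642), the latter called with each of the 22 samples left out in turn. The call over all stages was lost in run 1 alone (edgeR adjusted p = 0.0994), with limma on mean CPM per cell (adjusted p = 0.0947) and without the E9.5 samples (0.34, edgeR adjusted p = 0.290). At E8.0 the controls stood at 12.8, 15.02 and 19.6 CPM and the mutants at 18.6, 19.7 and 19.9, groups that overlapped, and the log2 fold change was 0.22 (SE 0.14, edgeR adjusted p = 0.605). The E8.5 mutant stood at 33.4 CPM against 20.4 and 20.6 in its controls.

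**Figure D1:**
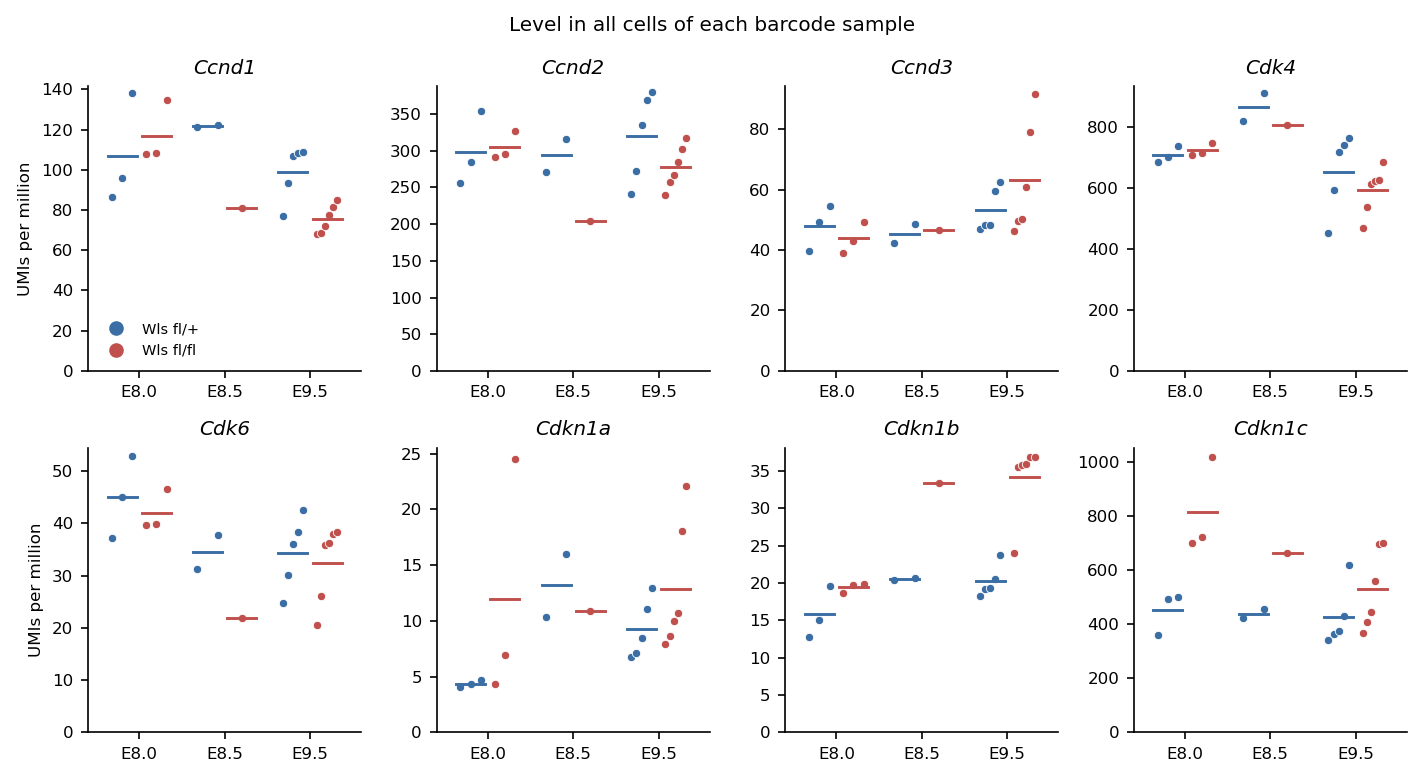
Levels of the 8 members in all cells, in CPM (vertical axes), by stage and genotype; each point is 1 barcode sample with at least 20 cells and lines are group means. At E9.5 the 6 mutant points lie above all control points for Cdkn1b (24.0 to 36.9 against 18.3 to 23.7 CPM), and at E8.0 the 3 mutant points lie above all control points for Cdkn1c.

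Cdkn1c, which encodes the inhibitor p57, was higher in mutants over all stages, and the levels of the E8.0 samples stood apart by genotype. The 3 E8.0 controls stood at 361, 494 and 499 CPM and the 3 mutants at 702, 724 and 1020.0 CPM. These groups did not overlap, as for 1 of the 8 members and 16.1% of all genes tested at E8.0, a share of members below that of all genes. The E8.0 fit gave a log2 fold change of 0.78 (SE 0.17) with an edgeR adjusted p of 0.496. That fit called 0 of the 8 members and 0.0244% of all genes, 1615 genes having an unadjusted p under 0.05. DESeq2 called Cdkn1c there with an adjusted p of 0.00111, as did edgeR with no filter on low counts (adjusted p = 0.00892).

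At E9.5 the 5 controls ran from 341 to 620 CPM for Cdkn1c with a median of 374, and the 6 mutants from 366 to 701, so the groups overlapped widely. The log2 fold change at E9.5 was 0.43 (SE 0.25, edgeR adjusted p = 0.296), and over all stages 0.53 (SE 0.17, edgeR adjusted p = 0.0478). That last call was lost when any 1 of 15 of the 22 samples was left out, with edgeR adjusted p up to 0.126, and without globin-rich cells (0.149), a setting that brought Cdk6 past the threshold instead (-0.29, edgeR adjusted p = 0.0196). The Cdkn1c call was lost too with the male share as covariate (edgeR adjusted p = 0.108), in run 1 alone (0.0731), with limma on mean CPM per cell (0.115) and without the E9.5 samples (0.211). Tnnt2, a marker of the cells in which Cdkn1c is highest, stood at E8.0 at 458, 514 and 568.4 CPM in the mutants and at 225, 302 and 435 in the controls. The share of cells that were Tnnt2-positive there was 15.98 to 21.2% in mutants and 10.6 to 18.7% in controls, and its part in the Cdkn1c result was not tested. In Tnnt2-negative cells at E8.0, Cdkn1c stood at 117, 215 and 288 CPM in controls and at 219, 405 and 818 in mutants, groups that overlapped.

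Cdkn1a, which encodes p21 and is a well-known target of p53, had the largest fitted difference and error of the members in all cells over all stages. The log2 fold change over all stages was 0.69 (SE 0.28, edgeR adjusted p = 0.134). At E8.0 the controls stood at 4.05, 4.36 and 4.69 CPM and the mutants at 4.33, 6.93 and 24.5, so a single mutant (Bar28) carried most of the E8.0 difference, a log2 fold change of 1.36 (SE 0.57, edgeR adjusted p = 0.504). Without that sample the E8.0 value was 0.31. At E9.5 the controls ran from 6.73 to 13.0 CPM and the mutants from 7.98 to 22.1, with overlap.

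Ccnd2, Ccnd3, Cdk4 and Cdk6 were called in no genotype comparison of all cells as fitted. Over all stages the log2 fold changes were -0.20 for Ccnd2 (SE 0.12, edgeR adjusted p = 0.339), 0.03 for Ccnd3 (SE 0.13, edgeR adjusted p = 0.942), -0.14 for Cdk4 (SE 0.06, edgeR adjusted p = 0.175) and -0.24 for Cdk6 (SE 0.08, edgeR adjusted p = 0.0723). Cdk4, the main kinase partner of D cyclins in most tissues, was even across samples at E8.0, with 687 to 737 CPM in controls and 709.9 to 749 in mutants. At E9.5 it ran from 454 to 766 CPM in controls and from 471 to 686 in mutants. Ccnd2 at E9.5 ran from 241 to 379 CPM in controls with a median of 335, and from 239 to 318 in mutants, all 6 below that median. Leaving out the 6-cell control (Bar6) brought Ccnd2 past the threshold at E9.5, at -0.26 (edgeR adjusted p = 0.0466), as did run 1 alone, at -0.37 (edgeR adjusted p = 0.0480). With no filter on low counts Cdkn1a (0.49, edgeR adjusted p = 0.0389) and Cdkn1c (0.39, edgeR adjusted p = 0.00844) were called at E9.5 too. Cdk6, the second kinase partner, ran from 24.8 to 42.6 CPM in the E9.5 controls and from 20.5 to 38.4 in the mutants.

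**Figure D2:**
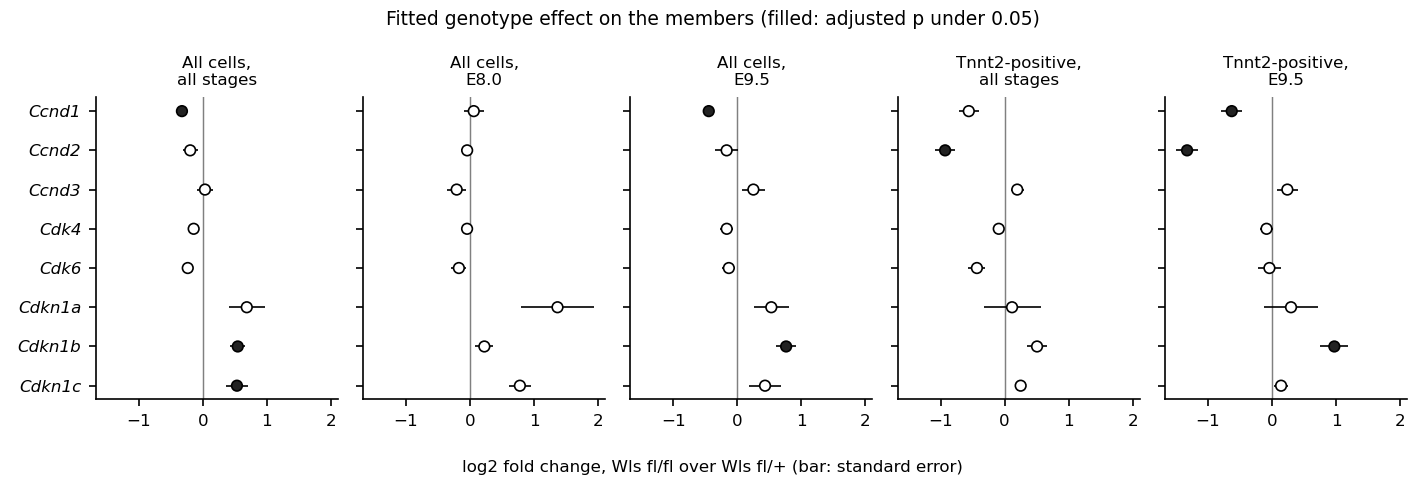
Fitted log2 fold changes of mutants against controls with their standard errors (horizontal axis) for each member, in all cells (all stages, E8.0, E9.5) and in Tnnt2-positive cells (all stages, E9.5), filled where the adjusted p is under 0.05. The Ccnd2 value lies at -0.20 in all cells and at -0.93 in Tnnt2-positive cells over all stages, and at -1.32 in Tnnt2-positive cells at E9.5.

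Cells were called Tnnt2-positive with at least 5 Tnnt2 UMIs, Tnnt2-negative with 0, and left out between. This gave 1377 positive cells (597 mutant, 780 control), 10112 negative cells and 3288 between, and 61.1% of the positive cells fell in the clusters called cardiomyocyte-like, against 0.0198% of the negative cells. By sample, that share of the positive cells at E8.0 was 33.0 to 55.7% in controls and 57.1 to 60.2% in mutants, with no overlap. Its part in the E8.0 levels was not tested. In 9 mutant and 9 control samples there were at least 20 positive cells. The sums of the 10 cardiomyocyte markers in positive cells ran from 28496 to 58577 CPM in E9.5 controls and from 30559 to 57565 in E9.5 mutants, and from 15515 to 16419 against 20607 to 26335 at E8.0, where the genotypes did not overlap. The part of these sums in the results was not tested. Blood markers, which should be absent from heart cells, summed to 1169 to 13329 CPM in the E9.5 controls and 1577 to 9088 in the mutants.

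Within Tnnt2-positive cells Ccnd2 was lower in mutants. Over all stages it was the only one of the 8 members called, at a log2 fold change of -0.93 (SE 0.15, edgeR adjusted p = 0.00320), in a fit of 18 samples that called 2.37% of genes. Ccnd2 is known to promote division of heart muscle cells. At E9.5 the 5 controls stood at 338, 587, 654, 662 and 734 CPM, and the 5 mutants at 203, 209, 216, 227 and 406 CPM. Every mutant lay below the control median, and the groups overlapped only because the highest mutant (Bar20) passed the lowest control (Bar4). The E9.5 log2 fold change was -1.32 (SE 0.17, edgeR adjusted p = 0.000298), where 3.2% of genes were called.

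The E9.5 levels of Ccnd2 are given by sequencing run as a description, with 2 or 3 samples of each genotype in a run that held both. The share of all genes whose levels stood apart within runs was not counted. In run 1 the controls stood at 587 and 662 CPM and the mutants at 203, 216 and 406, and in run 3 the controls stood at 654 and 734 and the mutants at 209 and 227. Run 2 held only the control at 338 CPM (Bar4). With run as a block, this sample carried no weight in the genotype effects fitted in Tnnt2-positive cells, for Ccnd2 or any other member. The log2 ratio of the E9.5 group means of Ccnd2, with that sample in, was -1.24. Run 1 alone gave -1.10 with an edgeR adjusted p of 0.0511. Adding each sample's male share to the model gave -1.30 (edgeR adjusted p = 0.000428). In the cardiomyocyte-like Tnnt2-positive cells alone, without that covariate, it was -1.32 (edgeR adjusted p = 0.000199). When a single Tnnt2 UMI was enough to call a cell positive it was -0.69 (edgeR adjusted p = 0.00805). The value over all stages was then -0.46 (edgeR adjusted p = 0.0152), and in run 1 alone it was -0.73 and was not called (edgeR adjusted p = 0.104).

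Markers of 2 other cell types are given beside this result, for the same E9.5 Tnnt2-positive cells. Summed markers of the anterior second heart field, the progenitors next to the heart, ran from 155.8 to 240.5 CPM in controls and from 98.2 to 147 in mutants, with no overlap. Summed endoderm and epithelium markers ran from 188 to 397 CPM in controls and from 330.4 to 846 in mutants, with overlap. Their part in the Ccnd2 result was not tested beyond the value of -1.32 in cardiomyocyte-like cells alone.

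At E8.0 Ccnd2 in Tnnt2-positive cells stood at 337, 396 and 520.5 CPM in controls and 298, 304 and 334 CPM in mutants, with a small gap between the genotypes. Groups that did not overlap there were found for 3 of the 8 members (Ccnd2, Cdk6 and Cdkn1c) and for 12.1% of all genes tested. At E8.5 the single pair was 342 CPM in the control and 181 in the mutant. The E9.5 effect minus the E8.0 effect on Ccnd2 was -0.90 on the log2 scale (SE 0.27, edgeR adjusted p = 0.200), in a test that called 0 of the 8 members and 0.21% of genes. Leaving out Bar20 brought this difference to -1.13 (edgeR adjusted p = 0.00469). In Tnnt2-negative cells at E9.5 Ccnd2 ran from 165 to 357 CPM in controls and from 200 to 335 in mutants, groups that overlapped.

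Whether the genotype effect differed between Tnnt2-positive and Tnnt2-negative cells was tested in 1 model with the sample as block. For Ccnd2 the difference of effects was -0.77 on the log2 scale (SE 0.18, edgeR adjusted p = 0.818). That test called 0 of the 8 members and 0.00713% of genes, and 738 genes had an unadjusted p under 0.05. With no filter on low counts edgeR called Ccnd2 there (-0.78, adjusted p = 1.78e-10). The fold change was nearly that of the filtered fit, and the reason for the lower adjusted p was not tested. The ratio of Ccnd2 in positive over negative cells of the same sample, on the log2 scale, was above 0 in 9 of 9 controls, with a median of 0.73, and in 3 of 9 mutants, with a median of -0.17.

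Ccnd1 and Cdkn1b in Tnnt2-positive cells changed at E9.5 in the directions seen in all cells. Ccnd1 at E9.5 stood at 52.2, 56.3, 58.9, 68.9 and 81.9 CPM in controls and at 32.7, 36.3, 40.3, 52.5 and 53.1 CPM in mutants. Only the 2 highest mutants, both from run 3, passed the lowest control, which came from run 1. The E9.5 log2 fold change was -0.63 (SE 0.16, edgeR adjusted p = 0.0420), and over all stages -0.56 (SE 0.15, edgeR adjusted p = 0.0519). The E9.5 call was lost without any 1 of 6 of the 10 samples, with edgeR adjusted p up to 0.302, and with DESeq2 (0.0698). It was lost too with the male share as covariate (0.118), in cardiomyocyte-like cells alone (0.118), from 20 Tnnt2 UMIs (-0.44, edgeR adjusted p = 0.285) and in run 1 alone (0.120).

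For Cdkn1b at E9.5, Tnnt2-positive cells of controls stood at 23.3, 23.8, 34.6, 35.3 and 40.6 CPM and those of mutants at 36.3, 49.6, 54.9, 59.0 and 71.2 CPM. The lowest mutant was again Bar20, and it alone fell inside the control range. The 2 lowest controls were the run 1 controls. Run 1 held 23.3 and 23.8 CPM in controls against 36.3, 54.9 and 71.2 in mutants, and run 3 held 34.6 and 40.6 against 49.6 and 59.0. These small groups are a description, as the share of all genes whose levels stood apart within runs was not counted. The log2 fold change was 0.97 (SE 0.22, edgeR adjusted p = 0.0176), which missed the threshold with the male share as covariate (0.74, edgeR adjusted p = 0.0676), in run 1 alone (1.22, edgeR adjusted p = 0.0557) and when the sample Bar19, Bar22 or Bar23 was left out (edgeR adjusted p up to 0.170). Over all stages it was 0.51 (SE 0.16, edgeR adjusted p = 0.0935). When 1 Tnnt2 UMI was enough, Cdkn1b (edgeR adjusted p = 0.0163) and Ccnd1 (-0.37, edgeR adjusted p = 0.0435) were called over all stages. At E8.0 the controls stood at 21.4, 27.9 and 29.1 CPM and the mutants at 27.1, 28.6 and 34.8 CPM, with overlap.

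**Figure D3:**
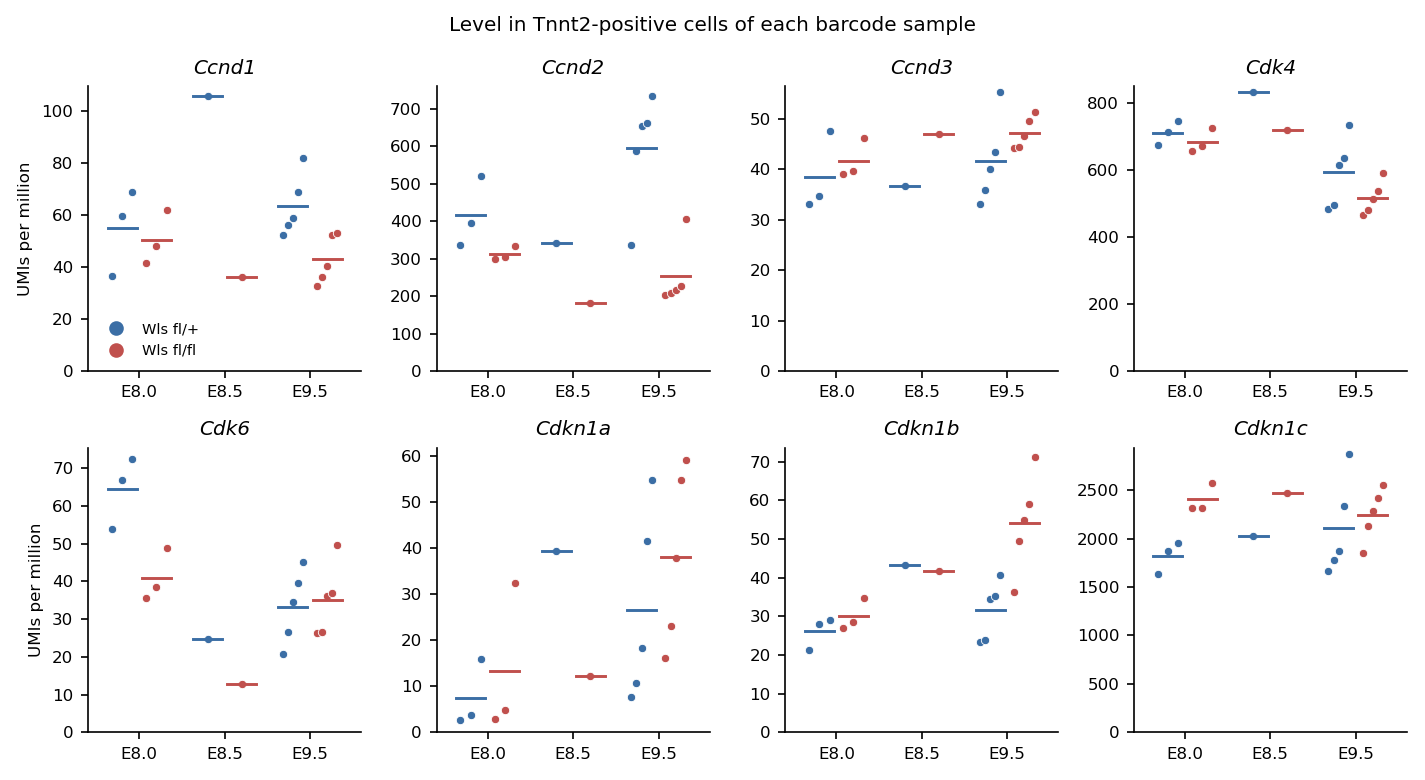
Levels of the 8 members in Tnnt2-positive cells, in CPM (vertical axes), by stage and genotype; each point is 1 barcode sample with at least 20 such cells and lines are group means. For Ccnd2 at E9.5, 4 mutants sit between 203 and 227 CPM and 1 at 406, while 4 controls sit between 587 and 734 and 1 at 338.

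For Cdk6 and Cdkn1c in Tnnt2-positive cells the E8.0 levels are given as a description, since genotype at E8.0 alone was not fitted in these cells. Cdk6 stood at 53.8, 66.9 and 72.5 CPM in the E8.0 controls and at 35.5, 38.4 and 48.7 CPM in the mutants. Cdkn1c stood at 1633, 1876 and 1950.1 CPM in the E8.0 controls and at 2316, 2318 and 2578 CPM in the mutants. Neither pair of groups overlapped at E8.0, as for 12.1% of all genes tested, and both overlapped at E9.5, where Cdk6 ran from 20.8 to 45.2 CPM in controls and 26.2 to 49.5 in mutants, and Cdkn1c from 1663 to 2877 in controls and 1854 to 2551 in mutants. Over all stages neither was called, at -0.43 for Cdk6 (SE 0.13, edgeR adjusted p = 0.0818) and 0.25 for Cdkn1c (SE 0.07, edgeR adjusted p = 0.0708). DESeq2 called Cdkn1c there (adjusted p = 0.0295), and with no filter on low counts edgeR called Cdk6 (adjusted p = 0.0116) and Cdkn1c (adjusted p = 0.0403).

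Cdkn1a in Tnnt2-positive cells varied more between samples of a genotype than between genotypes. At E9.5 the controls ran from 7.72 to 54.8 CPM with a median of 18.3 and the mutants from 16.1 to 59.0 with a median of 37.9. The fitted log2 fold change there was 0.30 (SE 0.42, edgeR adjusted p = 0.785). Ccnd3 ran from 33.1 to 55.4 CPM in the E9.5 controls and 44.2 to 51.3 in the mutants, and Cdk4 from 483 to 735 against 465 to 591. Neither passed the test at E9.5 (edgeR adjusted p = 0.481 for Ccnd3 and 0.745 for Cdk4).

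The make-up of the D cyclin pool shows the same data as shares. Of all D cyclin UMIs in Tnnt2-positive cells at E9.5, Ccnd2 held 84.4% ± 3.34 (SD, n = 5) in controls and 72.6% ± 6.00 (SD, n = 5) in mutants. Ccnd3 held 6.09% ± 1.19 in controls and 14.3% ± 3.00 in mutants, with ranges of 4.65 to 7.75% and 9.55 to 17.8%. Ccnd1 held 9.502% ± 2.65 and 13.1% ± 3.90. In all cells at E9.5 the share of Ccnd1 was 21.0% ± 1.81 (SD, n = 5) in controls and 18.1% ± 1.20 (SD, n = 6) in mutants, while that of Ccnd2 was 67.3% ± 4.07 and 66.6% ± 4.41.

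From E8.0 to E9.5, with genotype as a covariate, Cdkn1b rose in all cells and was the only member called. The log2 fold change was 0.70 (SE 0.15, edgeR adjusted p = 0.00194), in a fit of 22 samples that called 19.5% of genes. The control means were 15.8 ± 3.46 CPM (SD, n = 3) at E8.0 and 20.2 ± 2.13 (SD, n = 5) at E9.5, and the mutant means 19.4 ± 0.69 (SD, n = 3) and 34.2 ± 5.01 (SD, n = 6). In the control samples alone the Cdkn1b value was 0.48 and was not called (edgeR adjusted p = 0.292), while Cdkn1a was called there, at 1.15 (edgeR adjusted p = 0.0381). Ccnd3, at 0.45 (SE 0.17, edgeR adjusted p = 0.0578), was called with DESeq2 (0.50, adjusted p = 0.0225). Run 1 gave all of the E8.0 samples, and 3 runs gave those of E9.5. Run 1 alone called Cdkn1c too, at -0.69 (edgeR adjusted p = 0.00314). With run as a term in the model, Ccnd1 (-0.36, edgeR adjusted p = 0.0390) and Cdkn1c (-0.69, edgeR adjusted p = 0.0412) were called beside Cdkn1b.

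Within Tnnt2-positive cells 4 members changed from E8.0 to E9.5, where 26% of genes were called. The mix of these cells changed too. Cardiomyocyte-like cells made up 33.0 to 55.7% of them in E8.0 controls and 62.8 to 100% in E9.5 controls. In mutants the shares were 57.1 to 60.2% and 41.5 to 88.9%. The part of this mix in the values over time was not tested. The inhibitors Cdkn1a and Cdkn1b rose, by 1.60 (SE 0.51, edgeR adjusted p = 0.0223) and 0.58 (SE 0.18, edgeR adjusted p = 0.0198) on the log2 scale. The kinases Cdk4 and Cdk6 fell by 0.27 (SE 0.08, edgeR adjusted p = 0.0197) and 0.45 (SE 0.16, edgeR adjusted p = 0.0383). Cdkn1a went from 7.49 ± 7.38 CPM (SD, n = 3) at E8.0 to 26.6 ± 20.6 (SD, n = 5) at E9.5 in controls, and from 13.4 ± 16.6 (n = 3) to 38.2 ± 18.9 (n = 5) in mutants, with the highest E8.0 sample (Bar28, 32.5 CPM) above the median E9.5 control. In the controls alone only Cdk6 was called, at -0.79, and run 1 alone called Cdk4 and Cdkn1a. With run as a term, Cdkn1b (0.42, edgeR adjusted p = 0.125) and Cdk6 (-0.27, edgeR adjusted p = 0.219) were not called. The 3 D cyclins and Cdkn1c were not called over time as fitted. From 20 Tnnt2 UMIs Ccnd3 was called over time (0.47, edgeR adjusted p = 0.00497), and Cdkn1b was not (0.44, edgeR adjusted p = 0.138). From 1 Tnnt2 UMI neither kinase was called, at -0.08 for Cdk4 (edgeR adjusted p = 0.452) and -0.28 for Cdk6 (edgeR adjusted p = 0.0791).

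The largest number of members was called, together with the G2/M contrast given next, between Tnnt2-positive and Tnnt2-negative cells of the same barcode samples. In 18 samples, with the sample as block, 7 of the 8 members were called, where 61.5% of all genes were. All 3 inhibitors were higher in positive cells. Cdkn1c led with a log2 fold change of 2.98 (SE 0.12, edgeR adjusted p = 3.32e-17), higher in 18 of 18 samples. Cdkn1a followed at 1.18 (SE 0.26, edgeR adjusted p = 0.000295), higher in 14 of 18, and Cdkn1b at 0.80 (SE 0.06, edgeR adjusted p = 4.84e-11), higher in 18 of 18. The D cyclins split: Ccnd1 was lower in positive cells by 0.99 (log2 fold change -0.99, SE 0.08, edgeR adjusted p = 1.09e-10), Ccnd3 lower at -0.33 (SE 0.08, edgeR adjusted p = 0.00123), and Ccnd2 higher at 0.34 (SE 0.12, edgeR adjusted p = 0.0152). By genotype, Ccnd2 was higher in the positive cells of 9 of 9 controls and of 3 of 9 mutants (median log2 ratios of 0.73 and -0.17). Cdk4 was lower at -0.16 (SE 0.04, edgeR adjusted p = 0.000676), and Cdk6 did not pass, at 0.08 (SE 0.09, edgeR adjusted p = 0.482). The negative cells were not split by class here. By class, mean Ccnd3 was 100.9 CPM in blood-like and 42.0 in cardiomyocyte-like cells. In the other classes it lay between 23.8 (neural-like) and 47.5 (endothelial-like). Mean Cdkn1b was 37.6 CPM in cardiomyocyte-like, 42.7 in proepicardium-like, 37.7 in neural-like and 9.68 in blood-like cells. The remaining classes lay between 17.2 (endothelial-like) and 30.5 (anterior second heart field-like). The part of the class mix in this contrast was not tested.

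Median UMIs per cell were 22017 in positive and 22012 in negative control cells, and 22355 and 20081 in mutant cells. Single samples differed more and in both directions, with 20620 against 24836 in the E9.5 control Bar4 and 12365 against 10326 in the E9.5 mutant Bar8. At E9.5 the level of Cdkn1c was 2106 ± 502 CPM (SD, n = 5) in positive cells of controls and 243 ± 11.3 (SD, n = 5) in their negative cells. The mutant values were 2248 ± 270 (SD, n = 5) and 279 ± 89.8 (SD, n = 6). Ccnd1 stood at 63.6 ± 11.9 CPM in positive and 98.6 ± 15.8 in negative cells of E9.5 controls. When 1 Tnnt2 UMI was enough for a positive call, 4 members were called (Ccnd1, Ccnd3, Cdkn1b and Cdkn1c) beside 41% of genes, and Ccnd2, Cdk4 and Cdkn1a were not.

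To set the members beside the cell cycle, each of 18 samples was split into 3 equal parts by cell, and the part with the highest was set against the part with the lowest summed level of 18 G2/M genes, such as Mki67, Top2a and Ccnb1. In this contrast 7 of 8 members were called, where 36.3% of genes were. Cdkn1a and Cdkn1c were lower in the high part, at -1.04 (SE 0.14, edgeR adjusted p = 3.09e-06) and -0.98 (SE 0.11, edgeR adjusted p = 1.04e-07). Cdkn1b went the other way and was higher at 0.57 (SE 0.06, edgeR adjusted p = 2.92e-08). Ccnd3 was lower at -0.36 (SE 0.07, edgeR adjusted p = 0.000261), and Cdk6 higher at 0.29 (SE 0.06, edgeR adjusted p = 0.000943).

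Ccnd1 and Cdk4 were slightly higher in the high part, at 0.17 (SE 0.05, edgeR adjusted p = 0.00755) and 0.06 (SE 0.02, edgeR adjusted p = 0.0127), and Ccnd2 was level at 0.01 (SE 0.04, edgeR adjusted p = 0.903). The high part held more UMIs per cell in 18 of 18 samples, by 1.09 to 1.54 times with a median of 1.30. With each cell thinned to 5000 UMIs before scoring, Ccnd1 (0.02, edgeR adjusted p = 0.820) and Cdk4 (0.03, edgeR adjusted p = 0.530) were no longer called, and the other 5 were. DESeq2 did not call Cdk4 either (adjusted p = 0.0503). Tnnt2 itself was lower in the high part, at -1.51 (edgeR adjusted p = 2.61e-09), and its part in these values was not tested beyond the contrast that follows.

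The same contrast within Tnnt2-positive cells called 5 members and 27.9% of genes. It took only samples with at least 60 such cells, fewer than the 18 above, and Bar20 was the only E9.5 mutant among them. The part of the smaller number of samples and cells in the lost calls was not tested. Cdkn1a lay at -2.68 (edgeR adjusted p = 2.73e-06), Cdkn1c at -1.12 (edgeR adjusted p = 2.16e-09) and Ccnd3 at -0.44 (edgeR adjusted p = 0.00622), all lower in the high part. Cdkn1b lay at 0.65 (edgeR adjusted p = 0.000374) and Cdk4 at 0.22 (edgeR adjusted p = 0.00221). Cdk6 (0.03, edgeR adjusted p = 0.904) and Ccnd1 (-0.19, edgeR adjusted p = 0.304) were not called, nor was Ccnd2.

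Clusters made without the 8 genes were named from marker genes, and levels by class are given as a description. The 36 clusters gave 11 named classes with 8297 cells. Blood-like cells had the lowest class means of Ccnd1 and Ccnd2 and the highest of Ccnd3. Over 16 samples they held 5.16 ± 1.99 CPM of Ccnd1 (SD), 51.7 ± 52.2 of Ccnd2 and 100.9 ± 28.9 of Ccnd3. Their Ccnd2 samples, from 15.1 to 186 CPM, overlapped those of proepicardium-like cells (83.3 to 361). The class means of Ccnd3 elsewhere lay between 23.8 CPM in neural-like and 47.5 in endothelial-like cells. Cdk6 in blood-like cells stood at 3.65 ± 2.47 CPM, Cdkn1c at 17.3 ± 8.11, Cdk4 at 332 ± 164 and Cdkn1b at 9.68 ± 3.68, all the lowest class means. These levels are taken over all UMIs, globin UMIs included, and the part of globin in them was not tested.

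Cdkn1c had its highest class mean in cardiomyocyte-like cells, at 2798 ± 550 CPM (SD, n = 16 samples). Next came lateral plate or allantois-like cells at 1367 ± 1282 (n = 12) and proepicardium-like cells at 1232 ± 284 (n = 10), which did not differ from each other beyond their spread. The highest lateral plate or allantois-like sample, a mutant, stood at 5146 CPM, above the highest cardiomyocyte-like sample (3760). Anterior second heart field-like cells held 531 ± 122 CPM (n = 15), and cranial and paraxial mesoderm-like cells 206 ± 56.4 (n = 11) and 206 ± 100 (n = 12). The anterior second heart field-like class joined clusters led by Tlx1 and Nrg1 (628 cells), by Igfbpl1, Lefty2 and Fgf8 (273) and by Tlx1, Kazald1 and Msc (170). Ccnd2 was highest in neural-like cells, at 978 ± 273 CPM (n = 4), above anterior second heart field-like (453 ± 88.8) and cardiomyocyte-like cells (444 ± 228), whose levels did not differ beyond their spread. The wide spread in cardiomyocyte-like cells covered both genotypes, with means of 602 ± 207 in 8 controls and 286 ± 105 in 8 mutants. Anterior second heart field-like cells held 490 ± 66.3 in 7 controls and 420 ± 96.7 in 8 mutants. The order of the means of these 2 classes thus differed by genotype. Ccnd1 stood at 49.5 ± 13.4 CPM in cardiomyocyte-like cells, 114 ± 23.3 in anterior second heart field-like cells, and 164 ± 26.3 in endothelial-like cells (n = 11).

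**Figure D4:**
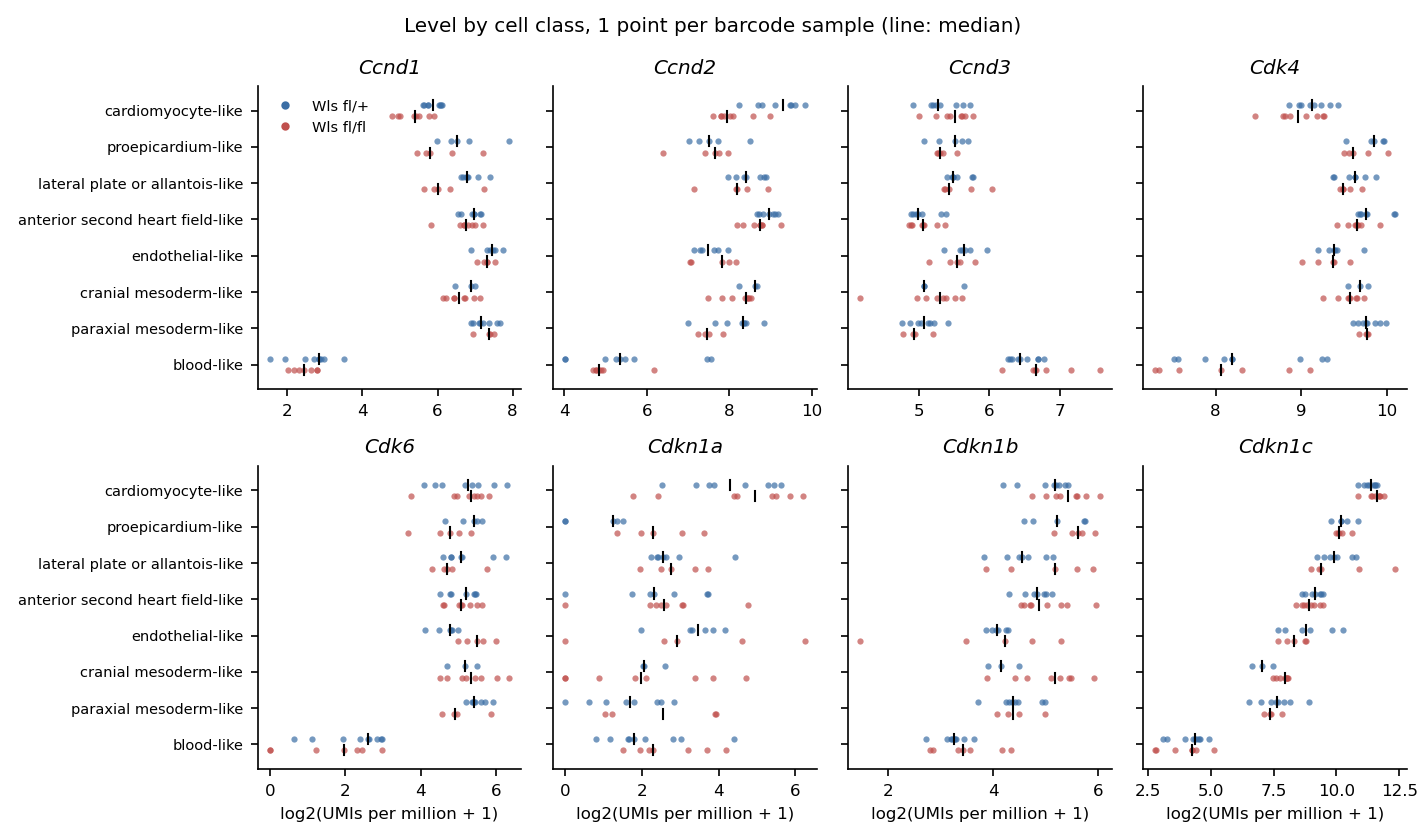
Level of each member in 8 named cell classes as log2(CPM + 1) on the horizontal axes; each point is 1 barcode sample with at least 20 cells of the class, by genotype, and black lines are medians. By class mean, blood-like cells sit lowest of the classes shown for Ccnd1 (5.16 CPM) and highest for Ccnd3 (100.9 CPM), and cardiomyocyte-like cells highest for Cdkn1c (2798 CPM).

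Genotype was tested within the 9 classes that had at least 2 samples of each genotype. Only Ccnd2 in cardiomyocyte-like cells was called, at -0.96 (SE 0.18, edgeR adjusted p = 0.00935, 8 mutant and 8 control samples), where 0.831% of genes were called. At E9.5 the cardiomyocyte-like cells of controls stood at 445, 705, 726, 766 and 908 CPM and those of mutants at 193, 223, 259 and 503, with Bar20 the highest mutant and Bar4 the lowest control. Ccnd1 in the same cells gave -0.50 (SE 0.13, edgeR adjusted p = 0.0629), and was called at a finer clustering (-0.45, edgeR adjusted p = 0.0483, with 1.89% of genes called).

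The other classes gave values that did not pass. In endothelial-like cells, Cdk6 ran from 31.01 to 63.4 CPM in 5 mutants and from 16.5 to 30.6 in 6 controls, at a log2 fold change of 0.80 (SE 0.18, edgeR adjusted p = 0.183), in a fit that called 0.0197% of genes. In proepicardium-like cells Cdkn1b gave 0.73 (SE 0.22, edgeR adjusted p = 0.112, with 1.84% of genes called). In neural-like cells, with 2 samples of each genotype, Ccnd2 gave -0.55 (SE 0.14, edgeR adjusted p = 0.0900, with 1.76% called). Wls itself in the neural-like samples stood at -0.53 (edgeR adjusted p = 0.362), against -2.02 to -5.15 in the other 8 classes, of which blood-like cells (-2.02) missed the threshold too. No member was called in blood-like (0.00871% of genes called), anterior second heart field-like (0.23%), cranial mesoderm-like (0.00948%), lateral plate or allantois-like (0.0374%) or paraxial mesoderm-like cells (0.00832%). In 3 of these classes the cells of the genotypes lay mainly in different clusters, so the comparison sets unlike clusters side by side. These were blood-like cells (35.7% of control cells in cluster 8, 57.8% of mutant cells in cluster 5), lateral plate or allantois-like cells (84.2% in cluster 17, 52.9% in cluster 28) and paraxial mesoderm-like cells (43.2% in cluster 16, 73.3% in cluster 21). An adjusted p above the threshold in these thin sums does not show that the genotypes were alike.

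The cardiomyocyte-like cells fell in 2 clusters, described here after their values were seen and with no test. One, led by Myl2 and Nppa, genes of working chamber muscle, held Ccnd2 at 115 and 208 CPM in E8.0 controls and 83.5, 89.6 and 90.5 in E8.0 mutants. By E9.5 its controls stood at 756, 763 and 1141 CPM and its mutants at 167 and 467. At E8.5 the pair was 539 in the control and 124 in the mutant. In this cluster both genotypes were low at E8.0. The share of all genes whose levels stood apart there at E9.5 was not counted. With so few samples no result on genotype is drawn from these values.

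The second cluster, led by Tdgf1, Myh7 and Ankrd1, held Ccnd2 at 633 CPM in an E8.0 control and 417 and 651 in mutants, and at 615, 663 and 686 in E9.5 controls, with no mutant sample of 20 such cells at E9.5. Its Cdkn1c was high throughout, at 3469 CPM in the E8.0 control, 4202 and 4569 in the E8.0 mutants and 2600 to 3728 in the E9.5 controls. In the chamber cluster Cdkn1c ran from 2241 to 2745 CPM in E8.0 controls and 2153 to 2778 in E8.0 mutants, and lay lower at E9.5, at 1270 to 1320 in controls and 883 and 1302 in mutants. For Cdkn1c the genotypes overlapped in this cluster at both stages.

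**Figure D5:**
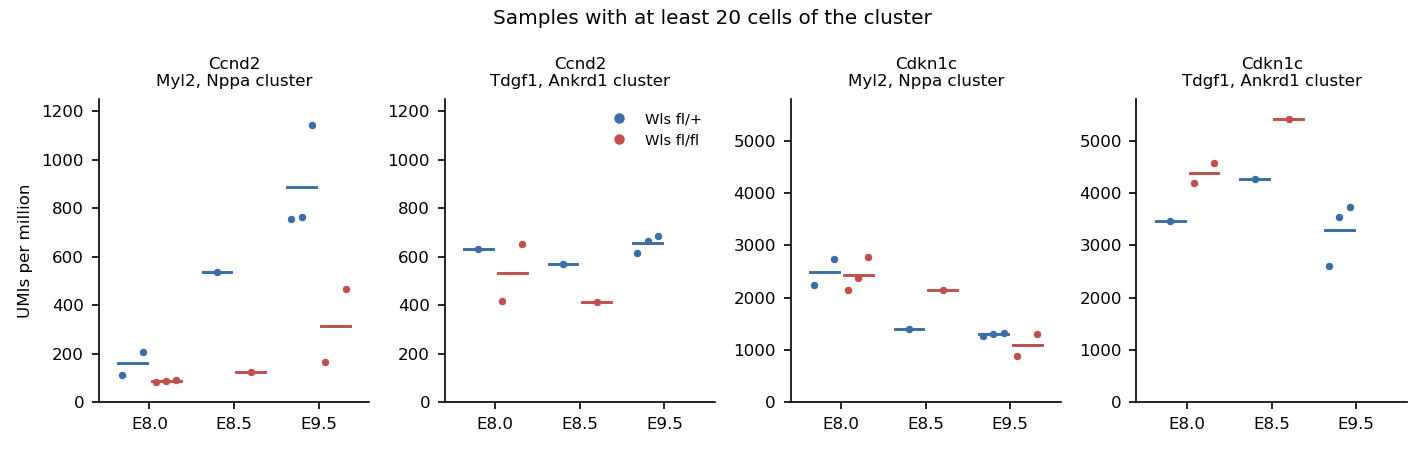
Ccnd2 and Cdkn1c in the 2 cardiomyocyte-like clusters, in CPM (vertical axes), by stage and genotype; each point is 1 barcode sample with at least 20 cells of the cluster and lines are group means. In the cluster led by Myl2 and Nppa, Ccnd2 of controls stands at 115 and 208 CPM at E8.0 and at 756 to 1141 CPM at E9.5, against 83.5 to 90.5 and 167 to 467 CPM in mutants.

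Over the 36 clusters, the members fell into patterns given here as correlations of log2 levels, which share libraries and depth and carry no test. Ccnd1 and Ccnd2 went together (Pearson r = 0.85), and Ccnd3 ran against both (r = -0.88 with Ccnd1 and -0.81 with Ccnd2). Cdk4 and Cdk6 went with both, at r = 0.86 and 0.82 with Ccnd1 and at 0.82 and 0.88 with Ccnd2. Cdkn1c went with Ccnd2 (r = 0.72) and with Cdkn1b (r = 0.70), and the highest r of Cdkn1a with another member was 0.23 (Cdk6). Blood-like clusters were among the 36, and blood-like cells had the lowest class means of most members and the highest of Ccnd3. Outside blood, class means of Ccnd2 and Cdkn1c did not always go together. Neural-like cells held 978 and 167 CPM of them, and proepicardium-like cells 195 and 1232. The part of the blood-like clusters in these correlations was not tested. Among 6260 genes ranked, those most like each member were Sinhcaf (r = 0.94) and Cbx1 (0.93) for Ccnd1, Tctex1d2 (0.93) and Cdc42se2 (0.92) for Ccnd2, March2 (0.91) and Ncoa4 (0.90) for Ccnd3, and Polr2m and Pebp1 (both 0.97) for Cdk4. For the others they were Myo5a (0.94) and Slc39a6 (0.92) for Cdk6, Lgmn (0.68) and Itga6 (0.60) for Cdkn1a, Glt8d1 (0.89) and Pnpla8 (0.86) for Cdkn1b, and Mum1l1 (0.91) and Rbpms (0.90) for Cdkn1c.

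Downstream of the members, 27 genes of the retinoblastoma and E2F pathway were followed. In all cells over all stages 0 of 27 were higher in mutants and 3 lower, with a median log2 fold change of -0.14 against 0.02 over all genes tested, of which 10.2% were called. The 3 were Ccne1, the cyclin E gene that E2F turns on (-0.66, SE 0.12, edgeR adjusted p = 0.00225), E2f4 (-0.40) and Tfdp1, the partner of the E2F factors (-0.29). At E8.0, 0 of the 26 tested passed in either direction. At E9.5, where 10.3% of all genes were called, 1 of the 25 tested was higher, Rb1 (0.73, SE 0.21, edgeR adjusted p = 0.0394), and 4 were lower, led by Ccne1 (-0.93). In Tnnt2-positive cells at E9.5, 0 of 21 were higher and 3 lower: Ccne1 (-1.30, SE 0.24, edgeR adjusted p = 0.00527), Skp2, whose protein marks p27 for destruction (-0.69), and Tfdp1 (-0.64). The median there was -0.35, against 0.01 over all genes tested, of which 3.2% were called. From E8.0 to E9.5 in Tnnt2-positive cells, where 26% of all genes were called, 1 of 22 rose, the kinase inhibitor Cdkn2d (0.73), and 10 fell, among them E2f7 (-0.82), Cdc25a (-0.79) and Ccne1 (-0.78).

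Genes of DNA synthesis were followed too. Of 16 S phase genes such as Mcm2 and Pcna, 8 were lower and 0 higher in mutants in all cells over all stages, and 3 lower and 0 higher in Tnnt2-positive cells at E9.5, beside 10.2% and 3.2% of all genes called. Their summed level in Tnnt2-positive cells at E9.5 ran from 1326 to 2108 CPM in controls and from 1032 to 1515 in mutants. Of 18 G2/M genes 4 were lower in all cells, and in Tnnt2-positive cells at E9.5 none passed in either direction (0 higher, 0 lower, edgeR, adjusted p under 0.05). Between Tnnt2-positive and Tnnt2-negative cells, where 61.5% of all genes were called, all 16 S phase genes and 14 of 18 G2/M genes were lower in the positive cells, and 1 G2/M gene, Ube2c, was higher (0.19, edgeR adjusted p = 0.0122).

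Among 17 genes known to act on the members, such as p53 and its targets, Myc and Foxo factors, 1 was called in all cells over all stages, fewer than the 10.2% of all genes. This was Foxo3, a factor that can turn on Cdkn1b, at 0.53 (SE 0.15, edgeR adjusted p = 0.0249). It was also called at E9.5 (0.95), in Tnnt2-positive cells (0.89) and in Tnnt2-positive cells at E9.5 (1.18, SE 0.22, edgeR adjusted p = 0.00591). At E9.5, 2 of the 17 were higher in mutants and 0 lower, a share near the 10.3% of all genes called, the other being Sesn2 (1.27, SE 0.30, edgeR adjusted p = 0.0174). The E9.5 comparisons share their samples with those of the members, so these genes are no separate evidence.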

How the data were processed

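The authors' deposited matrix holds counts of UMIs per gene and cell, with a deposited table of each cell's run, MULTI-seq barcode, stage and condition. kallisto, bustools 0.46.1, Cell Ranger and the GRCm38 build are named in the submitters' processing notes, with no role given. Counts were summed per barcode sample (22 samples) and compared by the 2-sided quasi-likelihood test of edgeR (version 4.0.16, R 4.3.3), with TMM scaling, the filterByExpr filter and Benjamini-Hochberg adjustment over all genes tested. The fits were first tested on simulated data. Clusters were made with scanpy 1.11.5 and leidenalg 0.10.2 without the 8 members. No doublet caller was run, and doublets were not removed here. DESeq2 1.42.0 and limma 3.58.1, other filters, Tnnt2 limits, runs and samples left out were alternatives, some chosen after seeing the data. The named genes are all members, Wls, up to 4 pathway genes per comparison with the largest called change, and the 2 genes most alike per member. The members and lists were chosen with earlier results of these data known. Sample depth ran from 134457 to 61307782 UMIs, so low members such as Cdkn1a in small samples rest on few UMIs.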

Additional observations from a re-analysis of the deposited data

Results flagged for a closer look

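A sample far from the others was looked for in 48 groups of 5 or 6 samples, and 4 were found, where chance gives about 1 in 20. Cdkn1b in all cells of E9.5 mutants had its lowest sample, Bar20, at 24.0 CPM, with the others at 35.6 to 36.9. In Tnnt2-negative cells of E9.5 mutants, Cdkn1b was again lowest in Bar20, at 21.4 CPM against 31.6 to 34.5. Ccnd2 in Tnnt2-positive cells of E9.5 mutants was highest in Bar20, at 406 CPM against 203 to 227. Cdkn1c in Tnnt2-negative cells of E9.5 mutants was highest in Bar10, at 455 CPM against 219 to 286. In the first 3 of these the sample nearest the controls was Bar20, a female sample of run 1 whose low-oxygen genes summed to 942 CPM, the lowest of the 6 mutants, and the part of that sum was not tested. Of 24 differences between the effects of genotype in 2 stages or 2 sets of cells, 0 passed the test.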

How the results depend on the processing

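The counts of members called moved as follows, with edgeR's quasi-likelihood test unless named. The share of all genes called under each setting is not given here or in the next paragraph. These counts therefore describe the settings and are no result about the members. In all cells the 3 genotype calls became 1 with the male share as covariate (Cdkn1b), 0 in run 1 alone, 0 without the E9.5 samples and 0 with limma on mean CPM per cell. With no filter on low counts, calls went from 0 to 1 at E8.0 (also 1 with DESeq2), from 2 to 4 at E9.5, from 0 to 1 for the difference between stages, from 1 to 5 in Tnnt2-positive cells and from 0 to 1 for the difference between positive and negative cells. That setting could lower the adjusted p greatly at nearly the same fold change. For Ccnd2 in Tnnt2-positive cells over all stages, edgeR gave -0.97 (adjusted p = 2.48e-29) against -0.93 (adjusted p = 0.00320) with the filter. Calls made only with no filter are therefore given as a description. From E8.0 to E9.5 in all cells, 1 call became 2 with DESeq2 size factors, 2 with DESeq2, 2 in run 1 alone and 3 with run as a term. The 1 genotype call in Tnnt2-positive cells became 3 with DESeq2, 3 from 1 Tnnt2 UMI and 0 in run 1 alone. At E9.5 the 3 calls there became 1 with the male share and 0 in run 1 alone, which has fewer samples. The 4 calls over time there became 2 in run 1 alone, 1 in controls alone, 2 with run as a term and 2 from 1 Tnnt2 UMI. Positive against negative cells went from 7 to 4 from 1 Tnnt2 UMI, and the classes from 1 to 2 at the finer clustering. Ccnd1 in the G2/M contrast reversed within Tnnt2-positive cells (-0.19, adjusted p = 0.304). Where no cause is given, the cause was not tested.

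Leaving out 1 sample in turn gave 1 to 4 calls for genotype in all cells, 0 to 0 at E8.0, 2 to 3 at E9.5, 0 to 1 for the difference between stages and 1 to 3 over time. In Tnnt2-positive cells it gave 1 to 2 for genotype, 1 to 3 at E9.5, 1 to 4 over time and 0 to 1 for the difference between stages. It gave 6 to 7 for positive against negative cells, 0 to 0 for their difference in genotype effect and 6 to 7 for the G2/M contrast. Ccnd2 was called without each of 18 samples in Tnnt2-positive cells (-1.03 to -0.86). Cdk6 over time there was lost without any 1 of 7 samples and Cdkn1a without any 1 of 5. Of 2128 values of single members under alternatives, 84 that were not called changed sign. No paired analysis was possible because no replicate number is shared between a mutant and a control barcode sample. Run was a block in the genotype fits that drew on more than 1 run, and contrasts within a sample had the sample as block. The sums behind Cdkn1a in E9.5 Tnnt2-positive cells held 7 to 159 UMIs in samples of at least 20 such cells.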
